A study of Mus musculus with 4 samples.

Results

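The enzymes that build cholesterol and fatty acids, with the 4 proteins that control them, were examined in 4 mouse mammary tumors measured by polyA RNA sequencing. The 39 genes were taken from a list of gene symbols by their place in the pathway, with earlier results of these data known. All 39 were found among the 23746 rows of the expression tables, 38 under the listed symbol and Msmo1 under its older symbol Sc4mol. They comprise 4 control genes, 17 genes of the cholesterol branch and 18 genes of the fatty acid branch.

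The tumors were primary mammary tumors of female mice. Tumors 26043 and 26044 came from WapCre;Rank;Brca1;p53 triple-mutant females and tumors 26048 and 26050 from WapCre;Brca1;p53 double-mutant females, so all 4 tumors share the WapCre transgene and the floxed Brca1 and p53 alleles, and the genotypes differ in the floxed Rank allele. Cre was driven by the promoter of whey acidic protein, a milk gene of secretory mammary epithelium. Per the paper, Cre of this line acts in luminal as well as basal cells and does not depend on pregnancy. The paper also reports effective deletion of Rank, Brca1 and p53 in such tumors. Which cells of these 4 tumors had recombined the alleles was not measured here. No treatment was given in the labels, and they state neither the age nor the strain of the females nor which of them were littermates. Rank itself (Tnfrsf11a) was at 2.07 and 0.962 FPKM in triple-mutant tumors 26043 and 26044 and at 10.6 and 11.9 FPKM in double-mutant tumors 26048 and 26050, in the direction of the labels. FPKM counts fragments per unit of transcript length and of mapped fragments, so genes of a tumor can be compared, but only roughly. Values of the members were 0.613 to 1.80 times the midpoint of their own Cufflinks interval, so ratios between genes are approximate. Between tumors the comparison is inexact too, since FPKM summed to 690775 in tumor 26043 and to 796031 in tumor 26044. Results after other scalings are therefore given below. The number of reads behind a value is unknown, and the p-values given here measure only the spread among these 4 tumors.

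Cholesterol is built from acetyl-CoA through mevalonate, farnesyl pyrophosphate, squalene and a series of sterol intermediates, and fatty acids are built from the same acetyl-CoA by carboxylation, chain assembly, elongation and desaturation. The SREBP transcription factors drive the genes of both branches. When sterols are scarce, the escort protein Scap carries SREBP from the endoplasmic reticulum to the Golgi for cleavage, and when sterols are plentiful Insig proteins hold Scap back. The secretory mammary gland is among the tissues with the highest rates of fatty acid synthesis, for milk fat, and adipose tissue uses the same enzymes for storage.

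Promoter sequence was examined because members that share a regulator can share motifs. RefSeq promoters of the GRCm38.p6 assembly matched 33 of the 39 genes, with 41 start sites, and no entry was found for Fads1, Sqle, Fdft1, Scd2, Fdps and Scd1. In the 250 bases before each start, 4 motifs were searched on both strands, where they were allowed to overlap. The sterol regulatory element TCACNCCAC, bound by SREBP, was present for 2 of the 33 genes, Hmgcs1 and Acsl1, against 1.22% of all genes and 1.23% of the genes tested for a genotype difference, in a table of 32851 promoters. The NF-Y box CCAAT was present for 26 genes (78.8%), against 37.5% of all genes and 40.7% of the genes tested for a genotype difference. The Sp1 box GGGCGG was also present for 26 genes (78.8%), against 35.4% of all genes and 65.0% of the tested genes. The E-box CACGTG was present for 6 genes (Insig1, Scap, Hsd17b7, Sc5d, Dhcr7 and Elovl5, 18.2%), against 6.86% of all genes and 10.04% of the tested genes. The median GC content of the members' promoters was 63.2%, against 52.4% for all promoters. A match to a motif is a description of these letters and neither a binding site nor a cause, and a missing match says only that the letters are not in the window.

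The promoters of 5 genes are printed here in the reading direction of the gene, ending at the base before the start, with the motifs in capitals. Hmgcs1 and Acsl1 are shown for the sterol regulatory element, and Fads3, Acsl4 and Elovl6 because their levels differed the most between genotypes. They lie at chr13:119690101-119690350 on the plus strand for Hmgcs1, chr8:46490716-46490965 on the plus strand for the downstream start of Acsl1, chr19:10041298-10041547 on the plus strand for Fads3, chrX:142390536-142390785 on the minus strand for Acsl4 and chr3:129532136-129532385 on the plus strand for Elovl6. On the strand opposite to the gene, CCAAT is read as ATTGG and GGGCGG as CCGCCC.
Hmgcs1: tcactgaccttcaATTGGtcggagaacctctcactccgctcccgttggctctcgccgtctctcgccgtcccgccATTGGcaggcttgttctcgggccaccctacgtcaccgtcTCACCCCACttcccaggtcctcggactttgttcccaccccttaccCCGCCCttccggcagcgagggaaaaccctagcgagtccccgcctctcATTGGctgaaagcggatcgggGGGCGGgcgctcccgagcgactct
Acsl1: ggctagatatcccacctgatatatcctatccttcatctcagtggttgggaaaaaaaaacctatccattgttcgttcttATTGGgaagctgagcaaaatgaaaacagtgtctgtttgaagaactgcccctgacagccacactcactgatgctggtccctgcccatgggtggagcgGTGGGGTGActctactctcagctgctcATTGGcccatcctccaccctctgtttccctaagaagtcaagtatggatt
Fads3: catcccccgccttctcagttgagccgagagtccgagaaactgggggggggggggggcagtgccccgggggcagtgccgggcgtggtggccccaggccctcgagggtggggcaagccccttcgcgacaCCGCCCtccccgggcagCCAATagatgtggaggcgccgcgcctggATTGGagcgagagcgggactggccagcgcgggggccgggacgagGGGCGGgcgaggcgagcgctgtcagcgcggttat
Acsl4: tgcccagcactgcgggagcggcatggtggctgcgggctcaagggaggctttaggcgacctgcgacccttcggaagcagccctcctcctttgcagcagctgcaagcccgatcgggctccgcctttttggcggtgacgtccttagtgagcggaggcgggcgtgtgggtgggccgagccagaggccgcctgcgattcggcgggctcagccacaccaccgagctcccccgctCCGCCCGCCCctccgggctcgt
Elovl6: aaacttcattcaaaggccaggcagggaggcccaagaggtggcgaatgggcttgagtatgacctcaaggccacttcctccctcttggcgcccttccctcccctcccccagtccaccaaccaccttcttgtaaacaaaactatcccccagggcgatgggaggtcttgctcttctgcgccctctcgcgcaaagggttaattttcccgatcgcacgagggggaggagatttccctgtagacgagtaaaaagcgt
The sterol regulatory element stands 137 bases before the start in Hmgcs1 and, on the opposite strand, 76 bases before the downstream start in Acsl1. The promoter of the upstream start of Acsl1, chr8:46470787-46471036, is not printed. It holds 4 Sp1 boxes and none of the other motifs. Hmgcs1 holds NF-Y boxes 237, 176 and 45 bases before its start and Sp1 boxes at 92 and 24 bases. In Elovl6 none of the 4 motifs was found, and in Acsl4 only the Sp1 box was found.

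Most of the 39 genes had a lower mean level in the triple-mutant tumors, but no single gene passed the test and the median over the 39 genes rested on 1 tumor. All 39 passed the filter of at least 1 FPKM in at least 2 tumors. The genotype difference was fitted with limma on log2(FPKM + 1) for all 12752 genes that passed, and the log2 fold changes are those of the triple-mutant over the double-mutant tumors. After Benjamini-Hochberg adjustment over all genes, 0 of the 39 had an adjusted p under 0.05, as did 0 of all genes (0%), and the smallest adjusted p was 0.396 for the members and 0.0644 for all genes. At an unadjusted p under 0.05 there were 6 members (Idi1, Elovl6, Fads1, Fads3, Acsl1 and Acsl4), against 1252 of all genes (9.82%). An exact permutation test of 2 tumors against 2 cannot give a two-sided p below 0.333, so none is given for single genes.

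The directions were mixed. Both triple-mutant tumors lay below both double-mutant tumors for 14 members (35.9%), against 22.9% of all genes, and above both for 9 members (23.1%), against 21.3% of all genes. The remaining 16 members overlapped. The fitted difference was negative for 28 members and positive for 11, with a median of -0.52, whereas the median of all genes tested was -0.02. The median was -0.48 in the cholesterol branch, with 5 genes above and 6 below, and -0.55 in the fatty acid branch, with 3 above and 7 below. Tumors of the same genotype also differed, and for 23 of the 39 members a difference between tumors of the same genotype was larger than the difference between genotypes. That count sets the larger of 2 differences between single tumors against a difference of means, so it is high by construction. It was not made over all genes. The median difference between the triple-mutant tumors was 0.61 for the members and 0.45 for all genes. Between the double-mutant tumors it was 0.38 and 0.36. The negative median of the 39 genes rested on triple-mutant tumor 26044, although that of the fatty acid branch was -0.55 also without it. Without that tumor the median of the members was 0.02 and the counts were 15 above and 16 below, against 40.2% and 31.9% of all genes, and without double-mutant tumor 26048, in which fat cell markers were high, the median was -0.35 with 12 above and 18 below, against 36.4% and 34.6%.

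**Figure D1:**
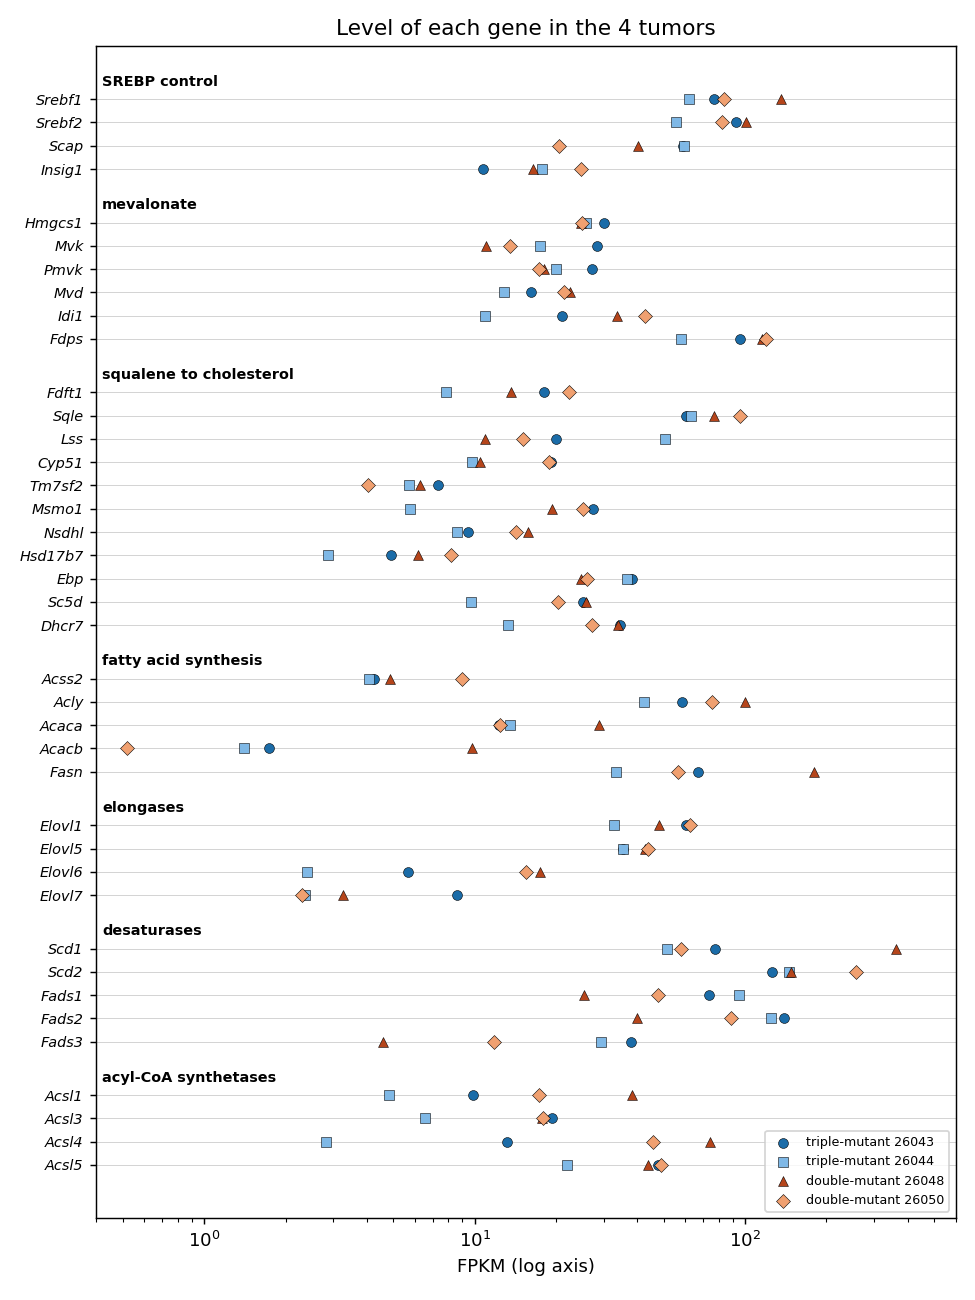
FPKM of each of the 39 genes on a log axis in the 4 tumors, with triple-mutant tumors in blue and double-mutant tumors in orange, grouped by step of the pathway. Scd1, Fasn and Acacb are highest in double-mutant tumor 26048, while triple-mutant tumor 26044 is the lowest of the 4 for 23 genes.

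Of the control genes, Scap alone was higher in both triple-mutant tumors. Scap was at 58.9 and 59.6 FPKM in triple-mutant tumors 26043 and 26044 and at 40.1 and 20.5 FPKM in double-mutant tumors 26048 and 26050, a log2 fold change of 1.02 (SE 0.40, n = 2 and 2, adjusted p = 0.519 by limma). The triple-mutant values were nearly equal, whereas the double-mutant values differed by 0.94 on the log2 scale, the widest spread within a genotype among the control genes. Of the 15 tested genes within 500 kb of Scap, 6 were above in both triple-mutant tumors and 2 were below, against 21.3% and 22.9% of all genes. The median log2 fold change of these neighbours was 0.35. Srebf1, whose product mainly drives fatty acid genes, was at 76.5 and 61.9 FPKM in the triple-mutant tumors and at 136 and 83.7 FPKM in the double-mutant tumors. Its log2 fold change was -0.62 (SE 0.35, adjusted p = 0.601) and the genotypes did not overlap. Srebf2, whose product mainly drives cholesterol genes, was at 92.3 and 55.8 FPKM in the triple-mutant tumors and at 101 and 82.3 FPKM in the double-mutant tumors, and tumor 26043 lay between the double-mutant values. Insig1, the sterol-regulated retention protein, was at 10.8 and 17.7 FPKM against 16.5 and 24.8 FPKM, also with overlap. Insig1 divided by Scap gave FPKM ratios of 0.183 in tumor 26043, 0.297 in tumor 26044, 0.411 in tumor 26048 and 1.21 in tumor 26050. The genotypes did not overlap in this ratio, but they did not overlap in Scap alone either.

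The 6 mevalonate genes split evenly, and in each of them the genotypes did not overlap. Of all genes tested, 21.3% were above and 22.9% were below in both triple-mutant tumors. The early enzymes lay above in both triple-mutant tumors, but after rescaling to TPM only Mvk did, and Hmgcs1 and Pmvk overlapped. Mvk, the kinase that first phosphorylates mevalonate, was at 28.3 and 17.4 FPKM in the triple-mutant tumors and at 10.99 and 13.6 FPKM in the double-mutant tumors (log2 fold change 0.81, SE 0.36, adjusted p = 0.542). Hmgcs1, which forms HMG-CoA, and Pmvk, which adds the next phosphate to mevalonate, had smaller log2 fold changes of 0.15 and 0.38. The promoter of Hmgcs1 carries the sterol regulatory element shown above. Hmgcs1 was at 25.8 FPKM in tumor 26044, 24.7 FPKM in tumor 26048 and 25.04 FPKM in tumor 26050, and little above these in tumor 26043. Each of these values lay below its own Cufflinks interval, so the level of Hmgcs1 is uncertain. The intervals were 37.6 to 41.5 FPKM in tumor 26043 and 37.4 to 41.2 FPKM in tumor 26044. They were 28.8 to 31.7 FPKM in tumor 26048 and 29.6 to 32.5 FPKM in tumor 26050. With interval midpoints the log2 fold change of Hmgcs1 was 0.35 in place of 0.15.

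The later mevalonate enzymes lay below in both triple-mutant tumors. Idi1, which isomerizes isopentenyl pyrophosphate, was at 21.0 and 10.97 FPKM in the triple-mutant tumors and at 33.6 and 42.8 FPKM in the double-mutant tumors, with a log2 fold change of -1.26 (SE 0.41, unadjusted p = 0.031, adjusted p = 0.480). It also had the widest spread within a genotype of these 6 genes, 0.88 on the log2 scale between the triple-mutant tumors. Fdps, which makes farnesyl pyrophosphate, was at 96.1 and 57.9 FPKM against 115 and 119.8 FPKM. Mvd, the decarboxylase before Idi1, was at 16.2 and 12.8 FPKM against 22.6 and 21.4 FPKM. Their log2 fold changes were -0.65 and -0.58. Fdps shares 64.1% of its 50-base stretches with other annotated transcripts and Idi1 20.0%, and how reads with several matches were shared out is not given in the sources used here, so both levels are uncertain.

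The 11 genes of the next steps lead from farnesyl pyrophosphate through squalene to cholesterol, and their median log2 fold change was -0.48. Of these genes 2 were above, 3 were below and 6 overlapped, against 21.3% above and 22.9% below of all genes. Sqle, the squalene epoxidase and a rate-limiting step, was at 60.3 and 63.3 FPKM in the triple-mutant tumors and at 76.6 and 96.0 FPKM in the double-mutant tumors (log2 fold change -0.47, SE 0.27, adjusted p = 0.614). Nsdhl, which removes a carboxyl group at carbon 4 of the sterol, was at 9.48 and 8.60 FPKM against 15.8 and 14.3 FPKM. Hsd17b7, the ketone reductase of the same step, was at 4.90 and 2.87 FPKM against 6.17 and 8.18 FPKM. These 3 were the genes below in both triple-mutant tumors.

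Lss and Ebp went the other way. Lss, which closes the sterol rings to form lanosterol, was at 20.0 and 50.5 FPKM in the triple-mutant tumors and at 10.9 and 15.1 FPKM in the double-mutant tumors, with a log2 fold change of 1.25 (SE 0.52, adjusted p = 0.533). The highest value was in tumor 26044, which was the lowest of the 4 for most other genes of the pathway. Ebp, the sterol isomerase, was at 38.1 and 36.7 FPKM against 24.7 and 25.9 FPKM, with little spread within either genotype (log2 fold change 0.54, SE 0.26, adjusted p = 0.561).

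The other 6 sterol genes overlapped between genotypes, with log2 fold changes from -0.73 to 0.30. Msmo1, the oxidase of the methyl groups at carbon 4, had the widest spread, at 27.4 and 5.75 FPKM in the triple-mutant tumors and 19.3 and 25.2 FPKM in the double-mutant tumors. A single low value in tumor 26044 thus set its difference, and without that tumor its log2 fold change was 0.30 in place of -0.73. The same held for Fdft1, the squalene synthase, for Sc5d, the sterol desaturase, and for Dhcr7, which reduces 7-dehydrocholesterol in the last step. In these 3 genes tumor 26044 was the lowest at 7.85, 9.66 and 13.3 FPKM, and the log2 fold changes without it were 0.04, 0.12 and 0.17. Cyp51, the lanosterol demethylase, and Tm7sf2, a sterol reductase, had log2 fold changes of -0.04 and 0.30, and Tm7sf2 shares 19.5% of its 50-base stretches with the overlapping gene Vps51.

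**Figure D2:**
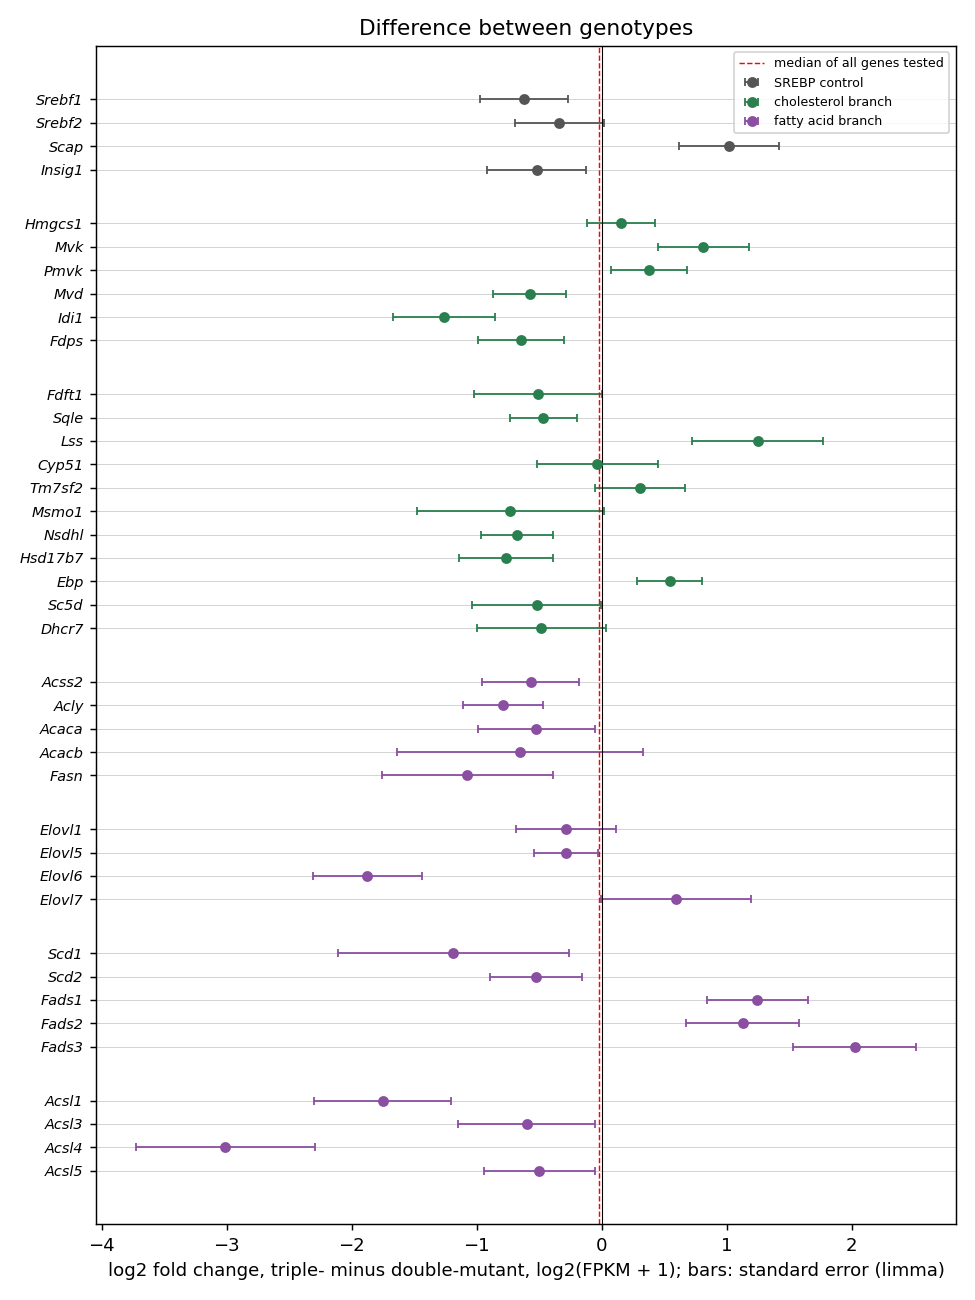
Log2 fold change of each gene, triple-mutant minus double-mutant, on the log2(FPKM + 1) scale, with the standard error from limma as bars, coloured by branch, and the median of all genes tested (-0.02) as a dashed line. Acsl4, Elovl6 and Acsl1 lie furthest to the left and Fads3 furthest to the right.

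Acetyl-CoA supply and fatty acid synthesis had a negative difference in all 5 genes, but 3 of them overlapped. Acly, which releases acetyl-CoA from citrate, was at 58.7 and 42.3 FPKM in the triple-mutant tumors and at 100.3 and 75.4 FPKM in the double-mutant tumors (log2 fold change -0.79, SE 0.32, adjusted p = 0.527). Acss2, which makes acetyl-CoA from acetate, was at 4.26 and 4.07 FPKM against 4.89 and 8.95 FPKM. These 2 of the 5 genes were below in both triple-mutant tumors, against 22.9% of all genes.

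Fatty acid synthase and both acetyl-CoA carboxylases were highest in tumor 26048 alone. Fasn, which assembles the 16-carbon chain, was at 66.9 and 33.3 FPKM in the triple-mutant tumors and at 179 and 56.4 FPKM in the double-mutant tumors, with a log2 fold change of -1.08 (SE 0.68, adjusted p = 0.638). Acaca, the carboxylase that commits acetyl-CoA to synthesis, was at 12.3 and 13.5 FPKM against 28.8 and 12.4 FPKM. Acacb, the mitochondrial carboxylase that restrains fatty acid oxidation, was at 1.74 and 1.399 FPKM against 9.75 and 0.518 FPKM, and its 2.82 log2 difference between the double-mutant tumors was the widest within a genotype among the 39 genes. Double-mutant tumor 26050 was below the triple-mutant levels of Acacb and between those of Fasn and Acaca. Without tumor 26048 the log2 fold changes were -0.25 for Fasn, 0.05 for Acaca and 0.76 for Acacb. Acaca shares 49.1% of its 50-base stretches with the annotated gene Gm5182, so its level is uncertain.

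Among the elongases, Elovl6 had a difference of -1.87 on the log2 scale (SE 0.44, unadjusted p = 0.010, adjusted p = 0.396). Elovl6, which lengthens the 16-carbon products of fatty acid synthase, was at 5.67 and 2.39 FPKM in the triple-mutant tumors and at 17.4 and 15.5 FPKM in the double-mutant tumors. The double-mutant values were close together and both well above tumor 26043, and leaving out any single tumor kept the log2 fold change between -2.36 and -1.39. None of its 5 tested neighbours within 500 kb was above in both triple-mutant tumors and 1 was below, against 21.3% and 22.9% of all genes. The median log2 fold change of these neighbours was 0.02. Elovl5, which lengthens polyunsaturated fatty acids, was at 35.4 FPKM in both triple-mutant tumors and at 42.7 and 43.9 FPKM in the double-mutant tumors, with a log2 fold change of -0.29. The value in tumor 26044 lay outside its own Cufflinks interval of 41.5 to 45.2 FPKM, and with interval midpoints the log2 fold change was -0.14 and the number of elongases below in both triple-mutant tumors was 1 in place of 2. Elovl1, for very long saturated chains, and Elovl7 overlapped. Elovl7 had the widest spread of the 4, at 8.60 and 2.36 FPKM against 3.27 and 2.30 FPKM, with tumor 26043 apart from the other 3.

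The desaturases lay in opposite directions. The 3 genes of the Fads cluster on chromosome 19 were above in both triple-mutant tumors. Fads3, a member of the cluster related to the front-end desaturases, was at 37.8 and 29.4 FPKM in the triple-mutant tumors and at 4.58 and 11.8 FPKM in the double-mutant tumors, with a log2 fold change of 2.02 (SE 0.50, unadjusted p = 0.011, adjusted p = 0.409). Fads1, the delta-5 desaturase of polyunsaturated fatty acids, was at 73.8 and 95.1 FPKM against 25.3 and 47.5 FPKM (log2 fold change 1.25, SE 0.40, adjusted p = 0.480). Fads2, the delta-6 desaturase, was at 139 and 124 FPKM against 39.99 and 88.6 FPKM (log2 fold change 1.13, SE 0.45, adjusted p = 0.520). In all 3 genes tumor 26048 was the lowest, and without it the log2 fold changes were 1.42 for Fads3, 0.80 for Fads1 and 0.57 for Fads2.

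The Fads genes lie side by side within 155 kb, from 10041548 to 10196872 on GRCm38, so their levels are not independent positions in the genome. Of the 15 other tested genes within 500 kb of the cluster, 5 were above in both triple-mutant tumors and 1 was below, against 21.3% and 22.9% of all genes. Their log2 fold changes had a median of -0.05 and a maximum of 0.94, below each of the 3 Fads genes. The Fads3 promoter shown above holds both NF-Y and Sp1 boxes, and Fads2 holds an Sp1 box without an NF-Y box.

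The stearoyl-CoA desaturases, which make monounsaturated fatty acids, had negative differences. Scd1 was at 77.3 and 51.7 FPKM in the triple-mutant tumors and at 363 and 57.8 FPKM in the double-mutant tumors (log2 fold change -1.19, SE 0.92, adjusted p = 0.691). The difference came from tumor 26048 alone, where the level was 2.63 above tumor 26050 on the log2 scale, and without tumor 26048 the log2 fold change was 0.13. Scd2, the main form outside liver and fat, was at 126 and 145 FPKM against 147 and 257 FPKM, below in both triple-mutant tumors by a narrow margin. Of the 8 other tested genes within 500 kb of Scd1 and Scd2, 6 were below in both triple-mutant tumors and 0 were above, against 22.9% and 21.3% of all genes. Their median log2 fold change was -0.54, near the -0.52 of Scd2. They include Scd3, a gene of the same family, at -1.38, and 167 of the 4841 50-base stretches of Scd1 are shared with Scd3. Scd1 divided by Scd2 gave FPKM ratios of 0.612 in tumor 26043, 0.357 in tumor 26044 and 0.225 in tumor 26050, but 2.46 in tumor 26048. The ratio of Fads2 to Scd2 was 1.11 in tumor 26043, 0.858 in tumor 26044, 0.272 in tumor 26048 and 0.344 in tumor 26050. Fads2 was above and Scd2 below in both triple-mutant tumors, so this ratio had to separate the genotypes and is no further result.

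The acyl-CoA synthetases, which activate fatty acids for storage, membrane building or oxidation, had the largest difference of the pathway. Acsl4, which prefers arachidonate and other polyunsaturated fatty acids, was at 13.2 and 2.82 FPKM in the triple-mutant tumors and at 74.1 and 45.9 FPKM in the double-mutant tumors. The log2 fold change was -3.01, or 8.06-fold lower on the log2(FPKM + 1) scale (SE 0.72, unadjusted p = 0.010, adjusted p = 0.396), and it stayed between -3.96 and -2.06 when each tumor was left out in turn. The triple-mutant tumors themselves differed by 1.89 on the log2 scale, the widest spread within a genotype of the 4 synthetases. Of the 4 tested neighbours of Acsl4 within 500 kb on chromosome X, 1 was above in both triple-mutant tumors and 1 was below. The shares of all genes were 21.3% and 22.9%. The log2 fold changes of these neighbours ran from -1.38 to 0.52, with a median of -0.54. Acsl1, the form of fat and liver that feeds triglyceride synthesis, was at 9.85 and 4.84 FPKM against 38.4 and 17.3 FPKM (log2 fold change -1.75, SE 0.55, unadjusted p = 0.027, adjusted p = 0.480), and the difference was -1.20 without tumor 26048. Of the 9 tested neighbours of Acsl1 within 500 kb, 3 were below in both triple-mutant tumors and 0 were above, against 22.9% and 21.3% of all genes. The median log2 fold change of these neighbours was -0.03.

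Acsl3 and Acsl5 overlapped between genotypes, with log2 fold changes of -0.60 and -0.50. In both, tumor 26044 was low at 6.58 and 22.0 FPKM, while the other 3 tumors lay from 17.7 to 19.3 FPKM for Acsl3, which serves lipid droplet formation, and from 43.8 to 48.9 FPKM for Acsl5. Acsl5 divided by Acsl4 gave FPKM ratios of 3.62 in tumor 26043 and 7.82 in tumor 26044, against 0.592 in tumor 26048 and 1.07 in tumor 26050. Acsl4 was thus the synthetase of this group with the highest or nearly the highest FPKM in the double-mutant tumors and was below Acsl5 in both triple-mutant tumors.

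**Figure D3:**
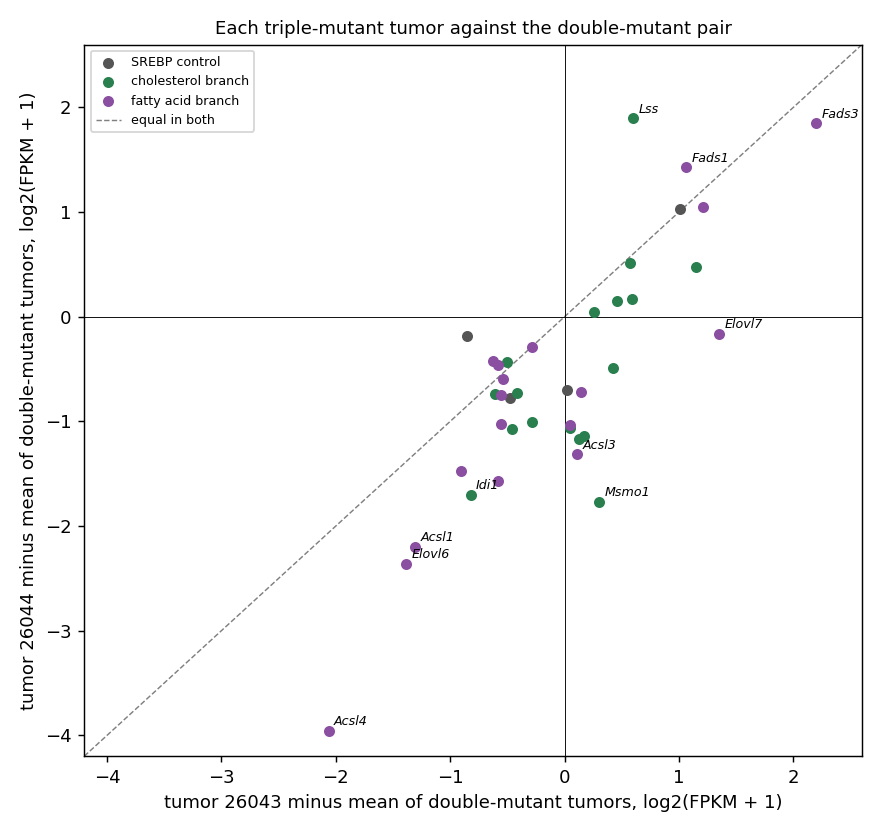
Each point is a gene, with the difference of triple-mutant tumor 26043 from the mean of the double-mutant tumors on the horizontal axis and that of tumor 26044 on the vertical axis, both on the log2(FPKM + 1) scale, and the dashed line marks equal differences. Most points lie below the dashed line, since 32 of the 39 genes were lower in tumor 26044 than in tumor 26043.

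The triple-mutant tumors did not carry the pathway at the same level. Tumor 26044 was the lowest of the 4 tumors for 23 of the 39 members (59.0%), against 39.0% of all genes, and tumor 26043 was above tumor 26044 for 32 members (82.1%), against 61.3% of all genes. As a mean of log2(FPKM + 1) relative to the 4 tumors, the cholesterol branch stood at 0.19 in tumor 26043, -0.38 in tumor 26044, 0.03 in tumor 26048 and 0.16 in tumor 26050. The fatty acid branch stood at 0.06, -0.54, 0.40 and 0.08 in the same order. For all genes tested these means lay between -0.08 and 0.11.

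Compared tumor by tumor, the cholesterol branch of 26043 lay near that of the double-mutant tumors. The median difference of its 17 genes was 0.20 against tumor 26048 and 0.12 against tumor 26050, whereas for tumor 26044 it was -0.73 and -0.69. In the fatty acid branch the median differences were -0.24 and -0.02 for tumor 26043 and -0.998 and -0.78 for tumor 26044. These comparisons share the double-mutant tumors and are given as descriptions. Without tumor 26044 the median of the cholesterol branch was 0.17 and that of the fatty acid branch -0.55, against -0.48 and -0.55 with all 4 tumors.

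Luminal epithelial markers also differed between the tumors. Tumor 26044 was the lowest of the 4 for 7 of 8 luminal epithelial markers, and their summed level was 549 FPKM there against 4323 FPKM in tumor 26043, 2701 FPKM in tumor 26048 and 2638 FPKM in tumor 26050. None of these 8 markers was at 0, and Epcam, the epithelial adhesion molecule, was at 347 and 25.7 FPKM in the triple-mutant tumors and at 516 and 390.1 FPKM in the double-mutant tumors. In bulk tumors, fewer cells of a type and less RNA per cell cannot be told apart, and the part of the luminal markers' level in the low lipid synthesis genes of tumor 26044 was not tested.

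Fat cell markers were high in tumor 26048 alone, apart from Fabp4. All 10 adipocyte markers were highest there, with a summed level of 2158 FPKM against 9.72 FPKM in tumor 26043, 263 FPKM in tumor 26044 and 37.2 FPKM in tumor 26050. Adipoq, the adipocyte hormone adiponectin, was at 0.328 and 0 FPKM in the triple-mutant tumors and at 56.0 and 0.829 FPKM in the double-mutant tumors. Cfd, the secreted protease adipsin, was at 1.85 and 0.177 FPKM against 625 and 4.99 FPKM. Of the 263 FPKM in tumor 26044, Fabp4, which endothelial cells also express, accounted for 261 FPKM, while Adipoq, Lep, Plin1, Retn, Pck1 and Adrb3 were listed at 0 there. Ucp1, the uncoupling protein of brown fat, was at 125 FPKM in tumor 26048 and between 0 and 0.113 FPKM in the other tumors, and Cidea was at 73.0 FPKM against 0.332 to 3.65 FPKM.

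Of the members, 13 were highest in tumor 26048 (33.3%, against 23.2% of all genes), 8 of them in the fatty acid branch and 3 in the cholesterol branch. They included Fasn, Acaca, Acacb, Scd1, Acly and Acsl1 of the enzymes that adipocytes use for fat storage, whereas Fads1, Fads2 and Fads3 were lowest there. The part of fat cells in these values was not tested. Without tumor 26048 the log2 fold changes were -0.59 for Acly, -1.20 for Acsl1, -2.67 for Acsl4 and -1.79 for Elovl6.

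**Figure D4:**
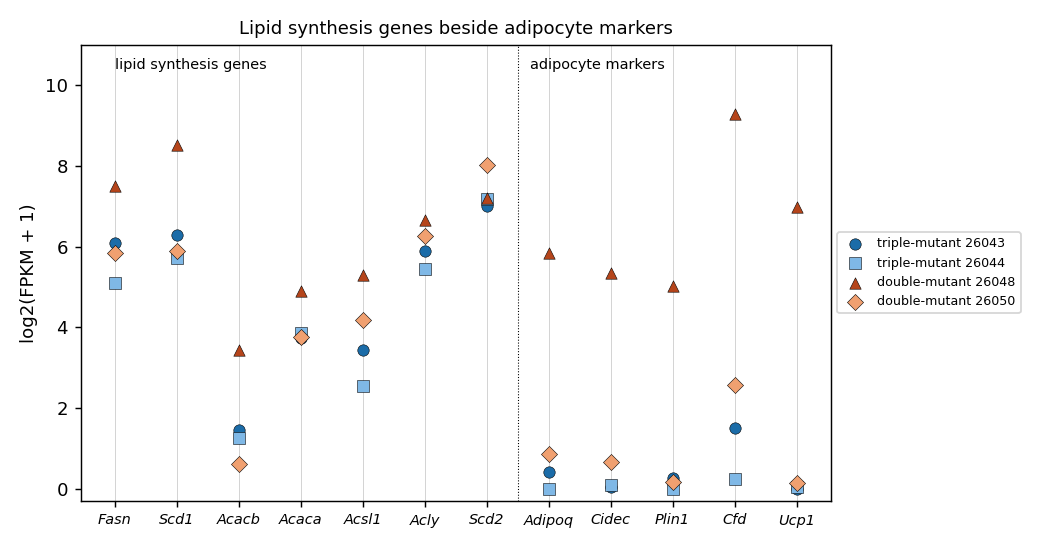
Log2(FPKM + 1) of 7 lipid synthesis genes (left of the dotted line) and 5 fat cell markers (right) in the 4 tumors. Tumor 26048 (dark triangles) is far above the other 3 tumors for each marker and is also the highest for Fasn, Scd1, Acacb, Acaca, Acsl1 and Acly, but not for Scd2.

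Other genes of lipid metabolism were taken from lists kept apart from the members. Of all genes tested, 21.3% were above and 22.9% were below in both triple-mutant tumors. A count near these shares says nothing particular about its list, here and for the lists that follow. Of 16 tested genes of 17 for further cholesterol synthesis, control and transport, 1 was above and 3 were below in both triple-mutant tumors, with a median log2 fold change of -0.27. Stard4, a cytosolic sterol carrier, and Mbtps2, the protease that makes the last cut in SREBP, had log2 fold changes of -1.09 and -0.76. Of 7 LXR target and sterol efflux genes, 3 were above and 1 was below, with a median of 0.35. Lpcat3, which remodels phospholipids, and Nr1h2, the receptor LXR beta, had log2 fold changes of 0.59 and 0.38. None of these genes had an adjusted p under 0.05 by limma.

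Among 21 tested genes of 26 found for further fatty acid synthesis, 1 was above and 7 were below, with a median of -0.06. Elovl4, an elongase of very long chains, had a log2 fold change of 1.78, and Idh1, a cytosolic source of NADPH, one of -1.41. Of the genes of triglyceride synthesis and lipid droplets, 9 of 13 were below and 2 above (against 22.9% and 21.3% of all genes), with a median of -0.80. The largest differences were those of Btn1a1 and Xdh, which act in the secretion of milk fat globules, at -2.45 and -1.79. Without tumor 26048 the median was -0.56. Of 9 genes of fatty acid uptake and binding, 4 were above and 4 below, with a median of 0.24, and Lpl, which releases fatty acids from lipoproteins, and Cd36, a fatty acid receptor, both highest in tumor 26048, had -2.82 and -2.69. Of 14 tested genes of 16 for fatty acid oxidation, 0 were above and 2 were below, Acadm (-0.88) and Cpt2 (-0.62), with a median of -0.16.

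Markers of other cell types were counted in the same way, and none of them had an adjusted p under 0.05 by limma. The counts stand beside 21.3% above and 22.9% below for all genes tested, and most lists are short. Of the tested basal epithelial markers 6 of 6 were above in both triple-mutant tumors, led by Krt5 and Krt17 at log2 fold changes of 6.68 and 5.72, with summed levels of 1739 and 1296 FPKM against 69.2 and 46.9 FPKM. Milk genes were below for 5 of 6, led by Lalba and Csn1s1 at -7.98 and -5.33, with summed levels of 191 and 17.1 FPKM against 2468 and 6654 FPKM. Luminal markers were above for 1 of 8 and below for 4, led by Krt19 at 2.40 and Elf5 at -2.37. Fibroblast markers were above for 1 of 6 and below for 4, led by Col3a1 and Col1a1 at -2.50 and -2.41, with sums of 196 and 112 FPKM against 881 and 425 FPKM. Macrophage markers were below for 6 of 10, led by Lyz2 and Itgam at -1.52 and -1.31, with sums of 774 and 419 FPKM against 1190.1 and 831 FPKM. Proliferation markers were below for 2 of 7, Mki67 and Plk1 at -0.70 and -0.58, endothelial markers for 0 of 4, with a sum of 78.1 FPKM in tumor 26044 and 24.7 to 43.8 FPKM in the others, and a single tested muscle marker overlapped, with a sum of 33.4 FPKM in tumor 26050. Sebocyte markers split, with Mc5r above at 1.04, Scd3 below at -1.38 and sums of 3.35 to 6.57 FPKM, and of T cell markers only Cd4 was tested and was above at 0.75. The part of these cell types in the levels of the lipid synthesis genes was not tested.

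Cufflinks gave an interval with each value, and for the members 21 to 25 values in each tumor lay outside their own interval, in 19 genes in all 4 tumors. The ratio of the value to the midpoint of its interval ranged from 0.613 to 1.80 over the members. Replacing the value by the midpoint moved no member's log2 fold change by more than 0.22, and of the 39 directions it turned only that of Cyp51, to 0.15.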

How the data were processed

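PolyA mRNA of the 4 tumors was sequenced by the authors as 50-bp single-end reads. Per the submitters' processing notes, TopHat2 2.0.10 and Bowtie 0.12.9, Cufflinks 2.1.1, HTSeq and DESeq2 1.6.2 were used with the mm10 genome. The deposited tables hold the FPKM that the authors estimated per gene with Cufflinks, with the bounds of its interval in FPKM and a status, which was OK for all 39 genes. Read counts and the authors' test results were not used here, and depth per tumor is unknown (FPKM summed to 690775 to 796031 per tumor).

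The tables were joined on symbol and position, and a gene was kept where 2 or more tumors reached 1 FPKM. The fit of log2(FPKM + 1) used limma 3.58.1 (lmFit, eBayes with trend; R 4.3.3), with Benjamini-Hochberg adjustment over all 12752 genes and a threshold of 0.05, and no block. Fold changes on this scale understate those of low genes. Simulated data held 12752 genes with 200 changed, and every gene was given the same spread. There the fit recovered 18.0% of changes of 1 and 100% of changes of 4 on the log2 scale, with 0 false calls. In the tumors the spread differs from gene to gene, so these shares do not carry over to them. Their log2 fold changes ranged from -8.70 to 7.20, and 0 genes passed the threshold. Gene lists were described by counts and medians, with no test. Alternatives were a pseudocount of 0.1, no filter or one of 5 FPKM, TPM, quantile and median-ratio scaling, no trend, interval midpoints, status OK rows, no small RNA genes, and leaving out each tumor. Transcript overlaps used GENCODE M21 and promoters RefSeq GRCm38.p6. Joins and plots were made with matplotlib 3.10.9, numpy 2.4.6, pandas 2.3.3 and Python 3.11.15.

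Members and lists were chosen with earlier results of these data known. Values in all 4 tumors are given for the control genes, for Sqle, Acaca, Fasn and Scd1, and, in each step, for up to 4 members with the largest differences whose genotypes do not overlap. The other members are given by range, with the member of widest spread within a genotype, and each other list by the 2 genes of largest difference without overlap.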

Additional observations from a re-analysis of the deposited data

How the results depend on the processing

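With 2 tumors a genotype, no member passed the adjusted threshold under any of the 10 other settings or when a tumor was left out, so the number of tumors limits every statement on single genes, and the read depth behind an FPKM is unknown. Over all genes the number past the threshold was 0 in the main analysis, 6 with quantile normalization, 5 with limma without the trend and 1 with interval midpoints. No paired analysis was possible because the labels number the tumors and do not say which females were littermates. Leaving out each tumor in turn, the number of members above in both triple-mutant tumors ranged from 9 to 15 (15 without tumor 26044, against 40.2% of all genes) and the number below from 16 to 25 (25 without tumor 26043, against 45.1%). Fewer tumors overlap less often, so these counts are higher by construction. Rescaling to TPM gave 7 above and 15 below, against 19.4% and 21.5% of all genes. The median log2 fold change of the cholesterol branch ranged from -0.73 to 0.17, positive only without tumor 26044. For the fatty acid branch it ranged from -0.74 to -0.39. Of the 39 members, 38 kept their direction under those of the 10 other settings in which they were tested. Cyp51, at -0.04 in the main analysis, was at 0.0015 with median-ratio scaling and 0.15 with midpoints. With a tumor left out, 26 kept their direction in every case. The others ranged from -0.70 to 0.0174 for Srebf2, -1.06 to 0.0443 for Fdft1, -0.49 to 0.42 for Cyp51, -1.77 to 0.30 for Msmo1, -1.17 to 0.12 for Sc5d, -1.14 to 0.17 for Dhcr7, -1.10 to 0.0516 for Acaca, -2.07 to 0.76 for Acacb, -0.72 to 0.14 for Elovl1, -0.16 to 1.35 for Elovl7, -2.50 to 0.13 for Scd1, -1.31 to 0.11 for Acsl3 and -1.04 to 0.0436 for Acsl5. The reversal came without tumor 26048 for Acaca, Acacb and Scd1, without tumor 26043 for Elovl7, without tumor 26044 or 26050 for Cyp51, and without tumor 26044 for the rest. The causes were not tested.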
